A study of Mus musculus with 9 samples.

Results

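The baseline transcriptome of control D2A1-d cells was described from the 3 samples titled NTC, out of 9 samples in the series, taken by their titles alone. D2A1-d is a mouse breast carcinoma line, and D2A1 cells go back to a mammary tumour of a BALB/c mouse. The NTC cells were transduced with a non-targeting control, the counterpart of the short hairpin RNAs used in the other samples. The labels give their genotype as WT and their treatment as N/A, and all 9 samples were grown in medium with 10% serum. The other 6 samples carried 1 of 2 hairpins against Med1 and were not analysed here. All samples are of 1 line, so the values describe this line in culture and not breast tumours in general. The labels call the samples biological replicates without saying whether they came from separate cultures, so the spread given below may be technical.

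Mammary epithelium is built from luminal cells, which make milk and carry keratins 8 and 18, and basal cells, which contract and carry keratins 5 and 14. Carcinoma cells can lose these programmes and take on mesenchymal traits under factors of the SNAI, TWIST and ZEB families, which bind E-box motifs and repress the adhesion gene Cdh1. Such cells keep contact with their surroundings through integrins and receptor kinases, and shape them through the chemokines, growth factors, matrix proteins and proteases that they secrete.

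The 3 libraries held 8123918, 8191344 and 8504098 counts. A gene was called expressed where it reached 1 CPM (counts scaled to library size) in each of the 3, which took 9 counts in each library. A count of 3, the upper limit that a count of 0 allows, corresponded to 0.353 to 0.369 CPM, and these limits cover counting error only. In all, 13048 genes were expressed, of which 10988 were protein-coding, or 50.2% of the 21899 protein-coding genes annotated. At most 3 counts in each library were found for 9593 protein-coding genes (43.8%), and 7315 of these had 0 in every library. The remaining 1318 lay between these bounds. Levels of different genes were compared per length as TPM (counts scaled to exon length and library). They are given as mean ± SD over the 3 libraries (n = 3). This SD covers the spread between libraries and not the choice of length. With the longest transcript as length, TPM of expressed list members changed by 0.780 to 2.61 times. An order of genes given below therefore holds for the summed exon length only. The median expressed protein-coding gene stood at 27.1 TPM, with quartiles at 11.1 and 61.1 TPM. The median of these genes' coefficients of variation over the libraries was 5.55%. A level of at least 100 TPM was reached by 1602 protein-coding genes (7.32%), and 1000 TPM by 82.

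The most abundant messages outside the ribosomal protein and mitochondrial genes were those of protein synthesis, the cytoskeleton, protein folding and a small set of secreted proteins. Eef1a1, the elongation factor that brings aminoacyl-tRNA to the ribosome, was measured at 11011, 10901 and 11279.6 TPM (mean 11064 ± 195). Lgals1, the secreted lectin galectin-1, came next at 7679, 8129 and 7680.1 TPM (mean 7829 ± 259). Actb, cytoplasmic actin, followed at 5397, 5611 and 5399 TPM (mean 5469 ± 123). The order of these genes was the same in all 3 libraries. The chaperones Calr of the endoplasmic reticulum and Hsp90ab1 of the cytosol stood at 4929 ± 85.3 TPM and 4773 ± 47.5 TPM, with Calr the higher in each library. The 25 highest also held the iron storage chains Ftl1 (3074 ± 65.9 TPM) and Fth1 (2324 ± 167 TPM), the glycolytic enzymes Gapdh (2541 ± 41.6 TPM) and Pkm (2051 ± 15.7 TPM), and the calcium-binding proteins S100a11 (2591 ± 104 TPM) and S100a6 (1552 ± 171 TPM). B2m, the light chain of MHC class I, reached 2322 ± 44.0 TPM. The predicted gene Gm20721 was counted at 3016 ± 93.1 TPM, but 99.0% of its exon length is shared with exons of other genes. Its level is therefore uncertain. For Ftl1 the shared part is 34.6% of the exon length.

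Besides Lgals1, the 25 held 2 more genes of secreted signalling proteins. Spp1, which encodes the integrin and CD44 ligand osteopontin, was measured at 1693, 1629.8 and 1988 TPM (mean 1770.2 ± 191), with replicate 3 above the other 2. Mif, a cytokine kept in the cytosol and released without a signal peptide, was measured at 1638, 1693 and 1711 TPM (mean 1681 ± 37.8). The 25 genes with the most counts together took 9.42% ± 0.0907 of the counts, and the 100 with the most took 18.2%. Ribosomal protein genes took 3.75% ± 0.111 and mitochondrially encoded genes 3.84% ± 0.130. Of the latter, mt-Co1, a subunit of cytochrome oxidase, was the highest at 29140.1 ± 1128 TPM, while mt-Co2 was listed at 137 ± 14.4 TPM and mt-Co3 at 79.0 ± 5.02 TPM. Reads that match near-identical copies elsewhere in the genome can be lost in such counts, so ribosomal protein and mitochondrial levels are uncertain.

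Among matched promoters, those of expressed genes and of genes at 0 differed in composition. Of the protein-coding genes outside chromosome 18 and the mitochondrial genome, RefSeq (build GRCm38.p6) names 20717, and for 16822 of these (81.2%) 1 promoter was matched, reaching from 250 bases before to 50 bases after the start. The CpG ratio (CG dinucleotides observed over those expected from the C and G content) was at least 0.6 in 8411 of these promoters. It was at least 0.6 in 15.6% of promoters of genes at 0 in each library (exact 95% binomial interval 14.6 to 16.6%). Among expressed genes the share was 61.3% (59.1 to 63.5%) under 10 TPM, 81.4% (80.4 to 82.4%) from 10 to 100 TPM and 83.4% (81.3 to 85.4%) at 100 TPM or more. The intervals treat promoters as independent draws and the last 2 of them overlap. For genes with some counts that were not expressed, 77.0% of those named had a promoter, which makes the check void for that class. For genes at 0 the share was 80.6% of those named and 75.4% of all protein-coding genes, so the value describes the matched promoters only. The letters TATAAA, on either strand, were found in 23.5% of the promoters of genes at 0 and in 7.16%, 5.69% and 7.98% of the 3 expressed classes, against 13.1% of all promoters. On the gene's own strand and between 45 and 16 bases before the start they were found in 5.59% of promoters at 0 and in 1.53%, 0.738% and 1.55% of the 3 expressed classes in rising order, against 2.98% of all.

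**Figure D1:**
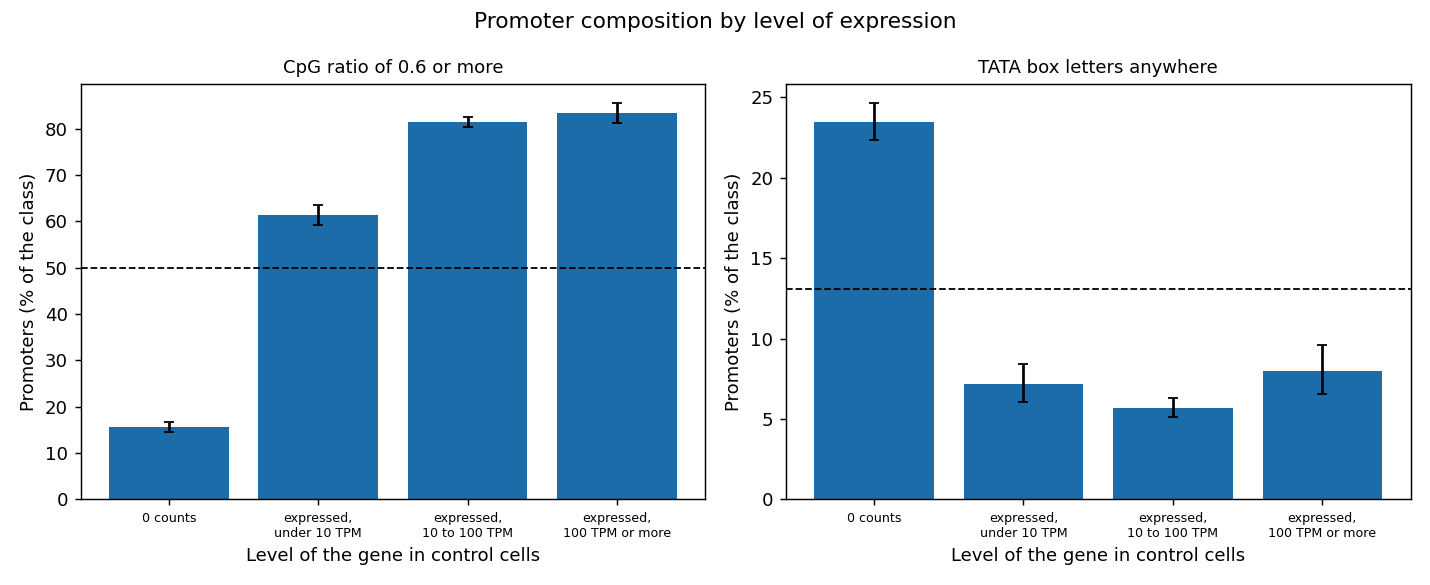
Share of promoters (percent of each class) with a CpG ratio of 0.6 or more, left, and with the letters TATAAA, right, in genes at 0 and in 3 classes of expressed genes by level. Bars are shares, error bars exact 95% binomial intervals and dashed lines the share of all promoters; the CpG share runs from 15.6% in genes at 0 to 83.4% at 100 TPM or more.

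The stretches before the start of 6 genes, chosen after their values were seen, show both ends of this range, with each CG in capitals. Snai1 (chr2:167537945-167538194, plus strand) and Hoxa5 (chr6:52204588-52204837, minus strand) are expressed transcription factor genes with 27 and 28 CG in the 250 bases. Axl (chr7:25788734-25788983, minus strand) and Spp1 (chr5:104434861-104435110, plus strand) hold 5 and 3, yet their genes stood at 468 and 1770.2 TPM. Epcam (chr17:87635729-87635978, plus strand), a gene of epithelial adhesion, and Wap (chr11:6638650-6638899, minus strand), a milk protein gene, had 0 counts in each library and hold 8 and 1.
Snai1: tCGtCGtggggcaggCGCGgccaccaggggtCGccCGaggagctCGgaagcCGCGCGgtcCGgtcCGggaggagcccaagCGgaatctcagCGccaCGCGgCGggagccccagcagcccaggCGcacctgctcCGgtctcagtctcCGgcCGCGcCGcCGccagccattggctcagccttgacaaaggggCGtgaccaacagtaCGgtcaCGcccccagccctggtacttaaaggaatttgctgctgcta
Hoxa5: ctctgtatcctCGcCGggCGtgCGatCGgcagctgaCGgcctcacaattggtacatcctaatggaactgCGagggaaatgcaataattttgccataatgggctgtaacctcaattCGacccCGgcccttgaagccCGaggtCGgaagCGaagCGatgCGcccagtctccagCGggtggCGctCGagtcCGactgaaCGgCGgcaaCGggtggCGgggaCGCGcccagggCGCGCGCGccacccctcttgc
Axl: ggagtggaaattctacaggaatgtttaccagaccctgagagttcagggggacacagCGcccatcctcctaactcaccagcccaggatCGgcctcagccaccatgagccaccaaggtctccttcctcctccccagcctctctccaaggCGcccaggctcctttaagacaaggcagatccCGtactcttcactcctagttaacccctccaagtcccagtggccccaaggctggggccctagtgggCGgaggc
Spp1: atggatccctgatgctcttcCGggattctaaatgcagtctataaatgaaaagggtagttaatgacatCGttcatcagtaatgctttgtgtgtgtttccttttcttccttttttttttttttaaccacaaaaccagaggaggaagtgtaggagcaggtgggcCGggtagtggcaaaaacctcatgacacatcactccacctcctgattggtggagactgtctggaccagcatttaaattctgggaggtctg
Epcam: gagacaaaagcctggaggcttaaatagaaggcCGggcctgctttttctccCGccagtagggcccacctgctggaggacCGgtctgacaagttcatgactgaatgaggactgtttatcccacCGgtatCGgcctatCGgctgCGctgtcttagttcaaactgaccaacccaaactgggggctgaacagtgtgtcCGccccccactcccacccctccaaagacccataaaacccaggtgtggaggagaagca
Wap: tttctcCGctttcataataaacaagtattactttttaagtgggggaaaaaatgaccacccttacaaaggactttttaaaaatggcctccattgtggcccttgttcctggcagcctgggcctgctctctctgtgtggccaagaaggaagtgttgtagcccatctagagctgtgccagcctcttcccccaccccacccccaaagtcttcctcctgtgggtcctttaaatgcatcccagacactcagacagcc

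The letters CAGGTG, an E-box that SNAI and ZEB factors can bind, were found on either strand of the 300-base promoters of Snai1, Spp1 and Epcam, and not in those of Hoxa5, Axl and Wap. They were found in 19.4% of all promoters, in 22.4% of those of genes at 0 and in 12.5% (10.7 to 14.4%) of those of genes at 100 TPM or more. A match is a match of letters and shows no binding. Lists with at least 80% of their promoters matched ranged widely. Of 24 promoters of expressed cell cycle genes 22 reached a CpG ratio of 0.6, as did 23 of 27 of Mediator subunits. Their exact binomial intervals were 73.0 to 99.0% and 66.3 to 95.8%. Both include the 81.4% of expressed genes from 10 to 100 TPM and the 83.4% at 100 TPM or more, so neither list stood apart from expressed genes. None of 25 promoters of unexpressed interleukins and cytokines did, nor did any of 8 of unexpressed milk proteins. The interval for the milk proteins, 0 to 36.9%, includes the 15.6% of genes at 0. That for the interleukins and cytokines, 0 to 13.7%, lies below it. Of the 41 interleukins and cytokines, however, 11 had 0 counts in each library, so these sets are unlike. Other lists went the other way. Of 56 promoters of replication-dependent histone genes under the threshold 38 reached 0.6, as did 5 of 6 of unexpressed Y-linked genes. Of the 67 histone genes of that list 11 had 0 counts in each library, so the histone value does not describe silent genes. Whether the libraries capture histone messages in full was not tested. None of 7 promoters of expressed S100 genes did, nor any of 6 of expressed acute-phase and complement genes or of 5 of expressed Toll-like receptors.

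Markers of epithelium were largely missing from these carcinoma cells. Of 36 luminal and general epithelial markers, 9 were expressed, 22 had at most 3 counts in each library, and 12 of these had 0, beside the 50.2% of all protein-coding genes that were expressed. Epcam, the epithelial cell adhesion molecule whose promoter is shown above, had 0 counts in each library. Cdh1, which encodes E-cadherin, had 2, 1 and 0 counts. Both were at or under the limit of detection. The claudin genes Cldn1, Cldn3 and Cldn4, which build tight junctions, had 0 counts throughout, and Cldn7 had 2, 0 and 1 counts. The keratin genes Krt7 and Krt19 had at most 3 counts in any library. Of the factors that maintain epithelium, Esrp1, a splicing regulator, and Ovol2 and Elf5 had 0 counts in each library, and Grhl2 had 13, 13 and 5 counts.

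The epithelial genes that remained were led by Krt18. This keratin of simple epithelia was measured at 114, 115 and 114 TPM (mean 115 ± 0.622), and its partner Krt8 at 11.5, 11.6 and 9.15 TPM (mean 10.8 ± 1.40). The products pair in epithelial filaments, and the level of Krt18 stood above that of Krt8 in each library without overlap. Perp, a desmosome protein, was measured at 36.3 ± 3.66 TPM. The ETS factor Elf3 (9.16 ± 1.21 TPM), the desmosome and adherens junction proteins Jup (4.70 ± 0.55 TPM) and Pkp3 (2.71 ± 0.121 TPM), the splicing regulator Esrp2 (4.01 ± 0.673 TPM), the pioneer factor Foxa1 (1.48 ± 0.395 TPM) and Grhl1 (1.35 ± 0.505 TPM) were expressed at lower levels. Of all 53 keratin genes 4 were expressed, the others being Krt80 (14.5 ± 1.48 TPM) and Krt10 (4.37 ± 1.19 TPM).

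Few basal and milk genes were expressed. Of 17 basal and myoepithelial markers 4 were expressed. Acta2, smooth muscle actin, was measured at 336, 356 and 341 TPM (mean 344 ± 10.0), and Lgals7, galectin-7, at 34.2, 46.5 and 39.4 TPM (mean 40.04 ± 6.19). Mylk, the myosin light chain kinase, and Itgb4, the hemidesmosome integrin chain, stood at 6.01 ± 0.0563 TPM and 0.973 ± 0.112 TPM. The keratins that define basal cells were not detected at this depth: Krt5 had 0 counts in each library and Krt14 had 0, 1 and 0 counts. Trp63, the master factor of basal cells, had 5, 4 and 3 counts. Of 10 milk proteins, Csn3, kappa-casein, was the one expressed, at 0.858, 2.08 and 1.98 TPM (mean 1.64 ± 0.677), with replicate 1 below the other 2. The remaining 9, among them Csn2, Wap and Lalba, had 0 counts in each library.

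Mesenchymal markers were expressed for the most part. Of 26 such genes 20 were expressed and 7 reached 100 TPM, beside 50.2% and 7.32% of all protein-coding genes. With a threshold of 1 TPM in each library, 16 of the 26 were expressed. Vim, the intermediate filament vimentin, was measured at 1282, 1302 and 1261 TPM (mean 1282 ± 20.5). Fn1, fibronectin, was measured at 642, 617 and 588 TPM (mean 616 ± 27.1), with replicate 3 lowest. Sparc, a collagen-binding matrix protein, was measured at 552, 553 and 568 TPM (mean 558 ± 8.98). Vim stood above the other 25 in each library. Col5a1 (478 ± 36.9 TPM), a chain of collagen V, the receptor kinase Axl (468 ± 2.33 TPM), the actin regulator Cald1 (314 ± 9.42 TPM), the hyaluronan receptor Cd44 (135 ± 3.69 TPM) and the receptor Pdgfrb (46.9 ± 3.87 TPM) completed the 8 highest. Other genes that mark fibroblasts were missing. Thy1, Fap and Lum had 0 counts in each library, Dcn had 1, 0 and 0 counts and Col3a1 had 1 count in each. Cdh2, N-cadherin, was expressed at the low level of 1.30 ± 0.367 TPM.

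Among the factors that drive the epithelial to mesenchymal transition, 8 of 12 were expressed. Twist1 was measured at 120.4, 116 and 112 TPM (mean 116 ± 4.16), Snai1 at 93.3, 101 and 96.9 TPM (mean 97.2 ± 4.01) and Snai2 at 83.1, 79.7 and 78.3 TPM (mean 80.3 ± 2.45). At the summed exon length the 3 did not overlap, with Twist1 the highest and Snai2 the lowest in each library. Their order at another length is not given here. The levels of Zeb1 (18.2 ± 1.69 TPM) and Zeb2 (9.09 ± 0.526 TPM) were lower, followed by Tcf4 (8.72 ± 0.225 TPM), Sox9 (7.62 ± 0.986 TPM) and Prrx1 (4.15 ± 0.527 TPM). Snai3, Foxc2 and Klf8 had at most 1 count in any library, and Twist2 had 9, 11 and 8 counts.

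**Figure D2:**
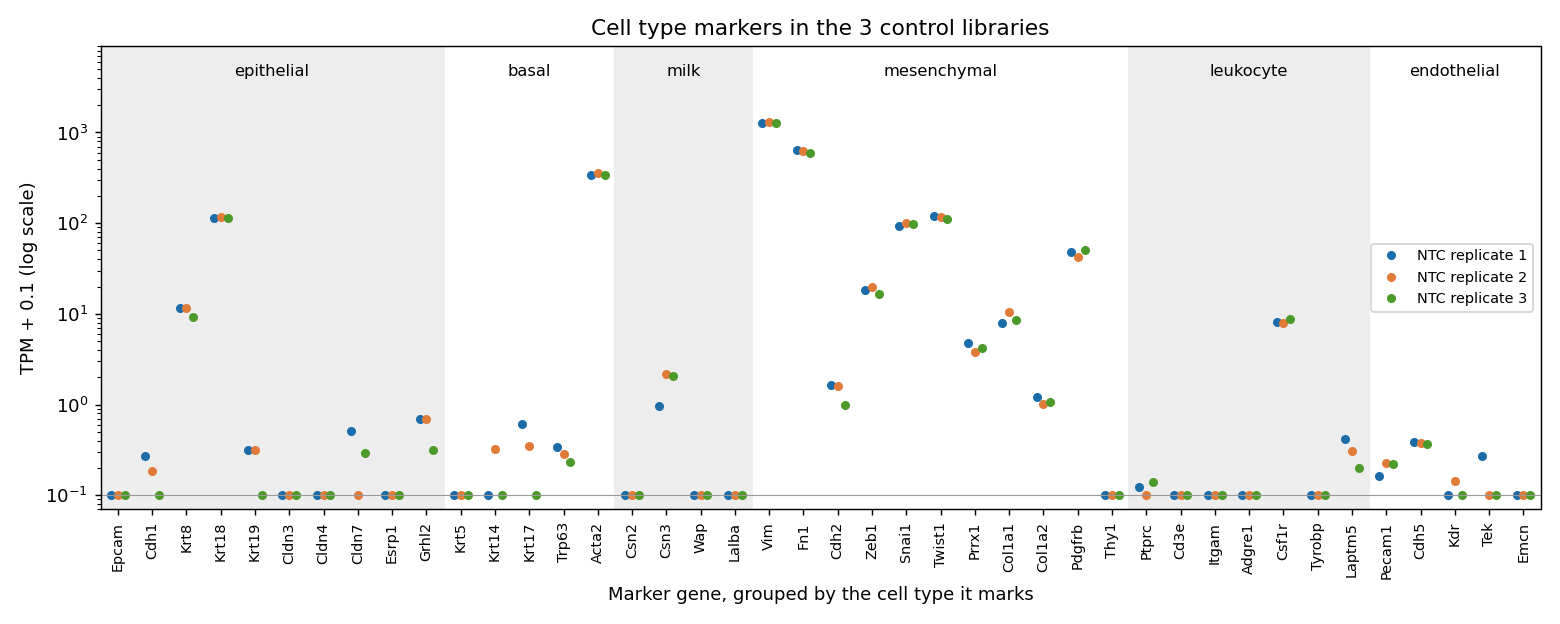
Level of each cell type marker (TPM + 0.1, log scale) in each of the 3 control libraries, with points on the line at 0.1 for a count of 0. Vim, Fn1, Twist1 and Snai1 lie near or above 100 TPM in every library, while Epcam, Cldn3, Cldn4 and Esrp1 lie at 0 and, of the epithelial markers, Krt18 is high.

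Markers of other cell types that a breast tumour can hold were near 0. Of 81 such markers over 8 cell types, 7 were expressed and 66 had at most 3 counts in each library. In bulk RNA, fewer cells of a type and less RNA per cell cannot be told apart. None of the markers of endothelium (10), fat cells (8), liver (8) and red blood cells (7) was expressed. Ptprc, the leukocyte phosphatase CD45, had 1, 0 and 2 counts, and Cd3e, Itgam, Adgre1 and Tyrobp had 0 in each library. Against that background 3 genes known from macrophages were expressed. Cd14, the coreceptor for lipopolysaccharide, was measured at 117, 109 and 128 TPM (mean 118 ± 9.36). Csf1r, the receptor of CSF-1, was measured at 8.02, 7.74 and 8.72 TPM (mean 8.16 ± 0.508), and the lysosomal protein Cd68 stood at 6.33 ± 1.53 TPM. The other expressed markers included Map2 (2.26 ± 0.384 TPM) of neural cells, Acta1 (4.87 ± 0.703 TPM) of muscle and Sycp3 (9.45 ± 1.53 TPM) of germ cells, of whose exon length 52.2% is shared with other genes.

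Xist RNA was counted, and the Y-linked genes of the list were not. Xist, the RNA that coats the inactive X chromosome, was measured at 30.3, 28.9 and 24.7 TPM (mean 28.0 ± 2.95), and its antisense partner Tsix at 1.85 ± 0.174 TPM. Whether strand was used in counting is not stated, so reads of the pair cannot be told apart. The 6 Y-linked genes Ddx3y, Eif2s3y, Kdm5d, Uty, Zfy1 and Usp9y had 0 counts in each library. Of 175 protein-coding genes annotated on Y, Gm47283 (chrY:90784738-90816464) was the one expressed, at a mean of 90.8 TPM. Whether its reads came from Y or from matching sequence elsewhere in the genome was not tested, so its level does not show expression from Y. On X, 319 of 929 protein-coding genes (34.3%) were expressed, beside the 50.2% of all protein-coding genes. Other chromosomes also lay below that share, among them 14 (361 of 902 expressed) and 7 (823 of 2022). Whether the share on X is tied to Xist was not tested.

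Receptors made up a wide repertoire with sharp gaps. Of 260 receptor genes in 10 lists, 140 were expressed (53.8%, near the 50.2% of all protein-coding genes) and 101 had at most 3 counts in each library. Of 55 receptor tyrosine kinases 25 were expressed. Axl, the receptor of GAS6, was measured at 469.8, 469 and 465 TPM (mean 468 ± 2.33). Epha2, an ephrin receptor, was measured at 181, 175 and 174 TPM (mean 177 ± 3.66). Met, the receptor of HGF, was measured at 86.6, 83.0 and 86.5 TPM (mean 85.4 ± 2.04). Axl stood above every other kinase of the list in each library, and Epha2 came next in each. Besides Met, the 8 highest held Ryk (142 ± 2.47 TPM), a WNT coreceptor, the collagen receptor Ddr2 (116 ± 4.38 TPM), the polarity protein Ptk7 (79.0 ± 4.33 TPM), Pdgfrb, described above, and the ephrin receptor Ephb4 (45.6 ± 2.11 TPM).

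Of the 4 ERBB receptors Egfr, Erbb2, Erbb3 and Erbb4, Erbb2 was the one expressed. Erbb2, the HER2 receptor, was measured at 26.9, 27.4 and 26.9 TPM (mean 27.0 ± 0.291), close to the median expressed gene. Egfr had 1, 2 and 1 counts, Erbb3 had 2 counts in each library and Erbb4 had 0. Fgfr2, Fgfr4, Kit and Flt3 had at most 3 counts in any library.

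The receptors of oestrogen and progesterone were not detected at this depth. Esr1, the oestrogen receptor, had 1, 0 and 1 counts, and Pgr, the progesterone receptor, had 0 in each library. Of 49 nuclear receptors 27 were expressed (55.1%, near the 50.2% of all protein-coding genes). The retinoic acid receptor Rarg was measured at 108, 103 and 95.4 TPM (mean 102 ± 6.36), and the glucocorticoid receptor Nr3c1 at 77.8, 71.5 and 74.01 TPM (mean 74.4 ± 3.19). The orphan receptor Nr2f6 (72.8 ± 1.59 TPM, with 54.4% of its exon length shared with other genes), the clock repressor Nr1d2 (55.3 ± 2.07 TPM), the retinoid X receptors Rxrb (54.1 ± 2.00 TPM) and Rxra (32.4 ± 1.11 TPM), the oxysterol receptor Nr1h2 (47.2 ± 3.70 TPM) and the fatty acid sensor Ppard (35.3 ± 1.58 TPM) followed. Pparg, Rora and Hnf4a had at most 4 counts in any library.

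**Figure D3:**
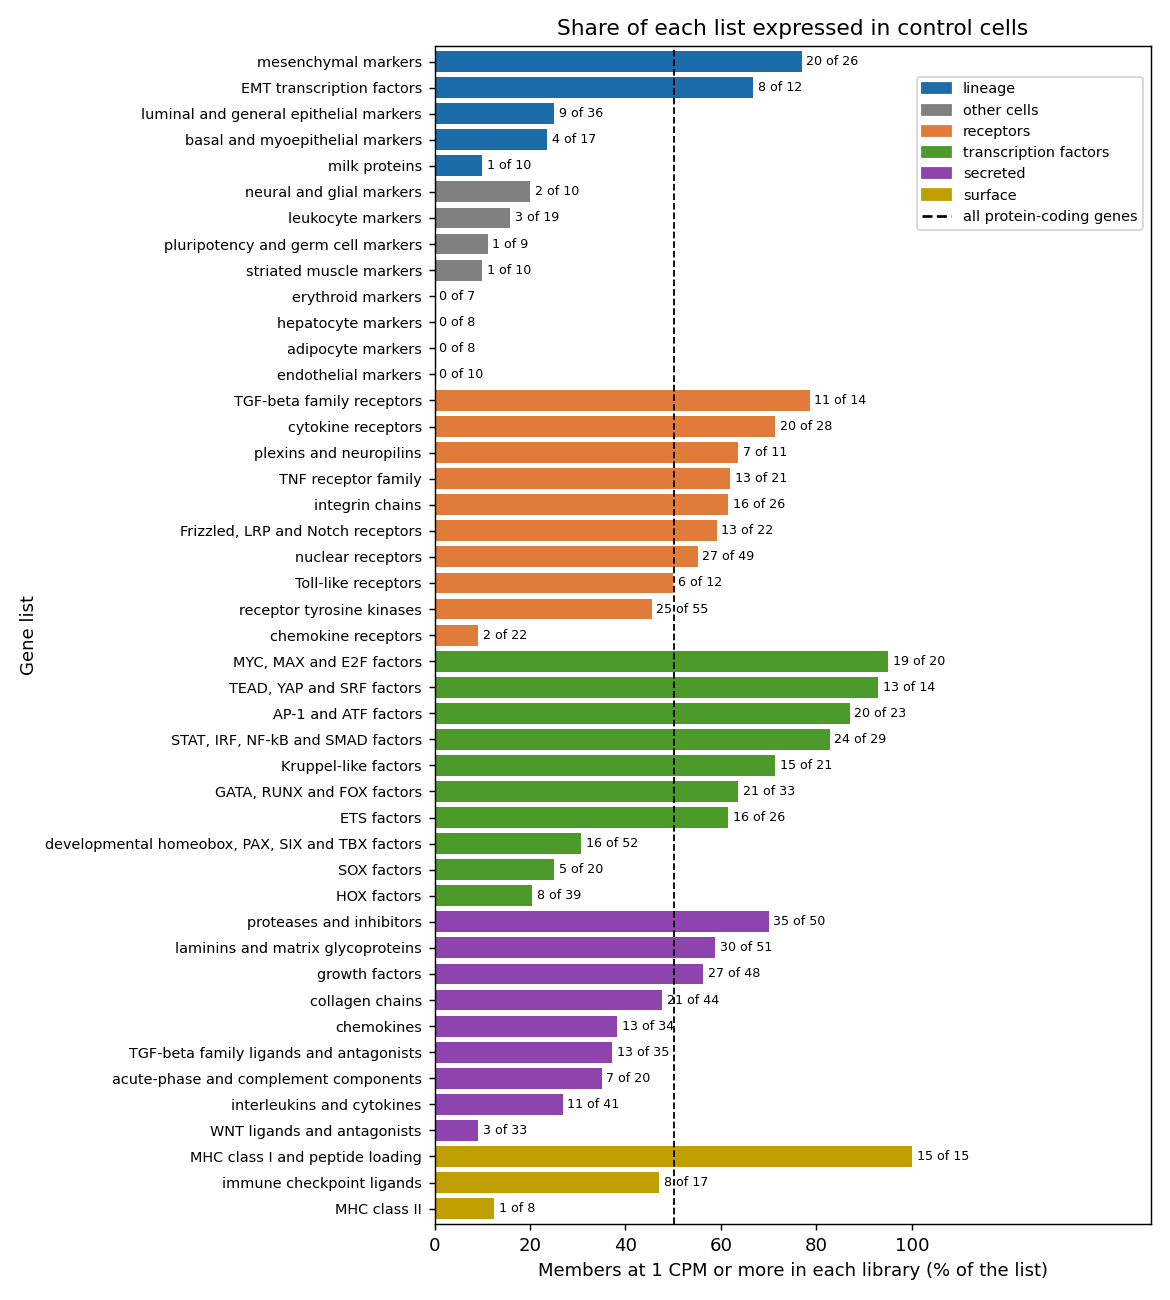
Share of each gene list (percent of its members) at 1 CPM or more in each of the 3 control libraries, coloured by category, with the number of expressed members of all members beside each bar. The dashed line marks the 50.2% of all protein-coding genes; MHC class I genes lie at 100%, and endothelial, adipocyte, liver and erythroid markers at 0.

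Receptors for TGF-beta family ligands and inflammatory cytokines were broadly expressed. Of 14 receptors of the TGF-beta family 11 were expressed. Tgfbr1 and Tgfbr2, the type I and type II receptors of TGF-beta, stood at 20.3 ± 0.869 TPM and 44.3 ± 1.45 TPM, and the BMP receptors Bmpr1a and Bmpr2 at 56.6 ± 2.52 TPM and 21.9 ± 1.13 TPM. Of 28 cytokine receptors 20 were expressed, led by the interferon receptor chains Ifnar1 (48.6 ± 1.97 TPM), Ifnar2 (41.1 ± 3.09 TPM), Ifngr1 (30.2 ± 2.51 TPM) and Ifngr2 (26.6 ± 2.61 TPM), by Il6st (45.3 ± 0.369 TPM), the shared signalling chain of the IL-6 family, and by Il4ra (22.5 ± 1.37 TPM). Il2rg, the chain shared by lymphocyte cytokine receptors, and Prlr, the prolactin receptor, had 0 counts in each library.

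The TNF receptor family was led by 1 gene. Tnfrsf12a, the receptor of TWEAK, was measured at 460.0, 475 and 483 TPM (mean 473 ± 11.6), above the other 20 members in each library. Ltbr, the lymphotoxin receptor, and Tnfrsf1a, the main TNF receptor, stood at 145 ± 5.57 TPM and 118 ± 9.45 TPM. In all, 13 of 21 were expressed, while Tnfrsf11a, the receptor RANK, and Cd40 had 0 counts. Chemokine receptors were nearly absent from the libraries. Of 22, the scavenging receptors Ackr3 (25.1 ± 1.92 TPM) and Ackr4 (2.00 ± 0.454 TPM) were the 2 expressed, and Ccr1 to Ccr6 had 0 counts in each library. Of 12 Toll-like receptors 6 were expressed, led by Tlr2 (25.9 ± 3.60 TPM) and Tlr4 (17.7 ± 1.07 TPM), which use CD14 as coreceptor.

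Adhesion receptors were dominated by integrin chains that bind matrix. Itgb1, the common beta chain, was measured at 695, 689 and 659 TPM (mean 681 ± 19.5). The alpha chains Itga3, which pairs with it to bind laminin, and Itga5, which pairs with it to bind fibronectin, stood at 360.3 ± 7.35 TPM and 113 ± 6.11 TPM. Itgb5 and Itgav, which together bind vitronectin and osteopontin, stood at 277 ± 7.77 TPM and 69.5 ± 3.84 TPM. Of 26 chains 16 were expressed, and Itga2 and Itga4 had at most 3 counts in any library. Of 22 receptors for WNT, Hedgehog and Notch ligands 13 were expressed. Smo, the Hedgehog signal transducer, was measured at 125, 125 and 126 TPM (mean 125 ± 0.9), and Notch2 (60.1 ± 3.91 TPM) and Fzd7 (53.2 ± 1.74 TPM) came next, while Notch1 had 8, 3 and 3 counts. Of 11 plexins and neuropilins 7 were expressed, led by the semaphorin receptors Plxnb2 (200.1 ± 4.77 TPM) and Nrp2 (123 ± 1.89 TPM).

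Transcription factor lists ranged widely in how many members were expressed. Of 277 factors in 10 lists, 157 were expressed (56.7%) and 108 had at most 3 counts in each library, near the 50.2% and 43.8% of all protein-coding genes. Factors of stress and growth were among the most complete. Of 23 AP-1 and ATF factors 20 were expressed. Atf4, the effector of the integrated stress response, was measured at 585, 577 and 569 TPM (mean 577 ± 7.86), and the related Atf5 at 419.6 ± 16.3 TPM. Jund (361 ± 13.0 TPM), Fosl1 (215 ± 10.1 TPM) and Junb (178 ± 4.75 TPM) were the AP-1 chains with the highest levels. Of the exon length of Jund 52.6% and of that of Fosl1 57.2% is shared with other genes, so both levels are uncertain. Fos, an immediate early gene, had 2, 17 and 6 counts, with replicate 2 above the other 2. Of 20 MYC, MAX and E2F factors 19 were expressed, led by E2f4 (365 ± 14.3 TPM), its partner Tfdp1 (254 ± 5.02 TPM) and Myc. Myc was measured at 176, 182 and 179.8 TPM (mean 179 ± 2.82), while Mycn had 0, 0 and 1 counts.

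Mechanical and inflammatory signalling had most of their nuclear factors. Of 14 TEAD, YAP and SRF factors 13 were expressed, with the coactivator Wwtr1 (TAZ) at 136 ± 4.84 TPM, Srf at 133 ± 14.9 TPM, Tead2 at 94.9 ± 5.90 TPM, Tead1 at 86.2 ± 5.43 TPM and Yap1 at 43.8 ± 1.55 TPM. Of 29 STAT, IRF, NF-kB and SMAD factors 24 were expressed. Rela, the NF-kB activator, was the highest at 138 ± 5.34 TPM, with Nfkb2 at 86.2 ± 4.17 TPM and Nfkb1 at 60.7 ± 0.191 TPM, and the shared SMAD partner Smad4 stood at 74.5 ± 3.13 TPM. Of 21 Kruppel-like and SP factors 15 were expressed, led by Sp3 (76.8 ± 3.39 TPM), Klf16 (58.6 ± 1.87 TPM) and Klf4 (58.1 ± 1.33 TPM). Of 26 ETS factors 16 were expressed, led by Erf (84.5 ± 1.93 TPM), Ets2 (83.2 ± 3.18 TPM) and Gabpa (74.4 ± 3.53 TPM), while Spi1, the macrophage factor, had 0, 1 and 0 counts.

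Lineage factors of development differed by family. Of 20 SOX factors 5 were expressed. Sox2, a factor of pluripotent and neural progenitor cells, was measured at 68.7, 67.1 and 62.0 TPM (mean 65.9 ± 3.47), while Pou5f1 and Nanog, its partners in pluripotent cells, had 0 counts and 0, 1 and 0 counts. Sox4 (65.8 ± 3.53 TPM) overlapped with Sox2, and Sox12 (79.0 ± 2.92 TPM) stood above both in each library. Of the exon length of Sox4 54.6% is shared with other genes. Of 33 GATA, RUNX and FOX factors 21 were expressed. Foxf1, a factor of visceral mesoderm, was measured at 116, 116 and 110.5 TPM (mean 114 ± 2.93), and Gata4, a factor of heart and gut development picked out after its value was seen, at 17.6, 17.97 and 19.2 TPM (mean 18.3 ± 0.827). Gata3, the factor of luminal breast cells, had 1, 6 and 4 counts. The RUNX partner Cbfb (251 ± 10.5 TPM) and the mitotic factor Foxm1 (179 ± 2.29 TPM) were the highest of this list. Of 52 homeobox, PAX and T-box factors 16 were expressed, among them Pbx2 (47.6 ± 0.517 TPM) and Tbx15 (21.7 ± 2.21 TPM), and Pax1, Pax2, Pax3, Pax5 and Pax7 had 0 counts in each library.

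HOX genes, which record position along the body axis, were expressed from the HOXA cluster on chromosome 6 and not from the other 3 clusters. Of the 11 HOXA genes 8 were expressed. Hoxa5, whose CG-rich promoter is shown above, was measured at 67.1, 68.5 and 67.2 TPM (mean 67.6 ± 0.785), and Hoxa7 at 54.6, 55.3 and 51.0 TPM (mean 53.7 ± 2.33). Hoxa6 (28.9 ± 1.96 TPM), Hoxa2 (16.9 ± 1.93 TPM), Hoxa4 (15.7 ± 2.10 TPM), Hoxa3 (11.3 ± 0.231 TPM) and Hoxa10 (10.96 ± 1.15 TPM) were lower. Hoxa2 overlapped with Hoxa4, and Hoxa3 with Hoxa10, so the order within these pairs does not hold beyond the spread. Hoxa9 had 8, 16 and 9 counts, and Hoxa11 and Hoxa13 had 0. The 10 HOXB, 9 HOXC and 9 HOXD genes held a single count among them, for Hoxc9 in replicate 3. Over all 39 genes, 8 were expressed and 29 had 0 counts in each library, against 50.2% and 33.4% of all protein-coding genes.

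**Figure D4:**
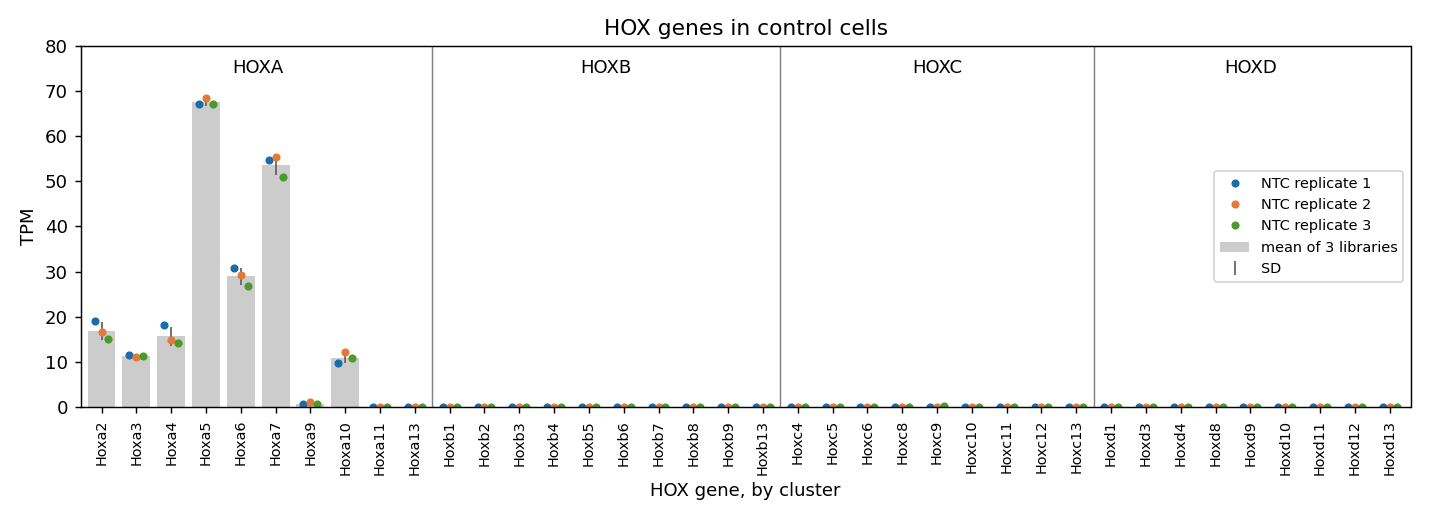
Level of HOX genes (TPM) in order of number within the HOXA, HOXB, HOXC and HOXD clusters, with bars for the mean, error bars for the SD and points for each of the 3 control libraries. The genes from Hoxa2 to Hoxa10, except Hoxa9, lie between 10.96 and 67.6 TPM on average, and the other clusters lie at 0 apart from 1 count of Hoxc9.

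Of 356 genes for secreted proteins in 9 lists, 160 were expressed (44.9%) and 155 had at most 3 counts in each library, near the 50.2% and 43.8% of all protein-coding genes. The 3 highest chemokines are known to draw neutrophils and monocytes. Cxcl5 was measured at 768, 751 and 766 TPM (mean 762 ± 9.52), Cxcl1 at 189, 171 and 176 TPM (mean 178 ± 9.0) and Ccl2, the monocyte chemokine, at 116, 115 and 105 TPM (mean 112 ± 5.93). Cxcl5 stood above every other chemokine in each library. Cx3cl1 (83.8 ± 2.40 TPM), Cxcl3 (28.5 ± 1.34 TPM), Ccl7 (15.6 ± 3.34 TPM), Ccl5 (13.8 ± 1.97 TPM) and Cxcl10 (9.77 ± 1.12 TPM) made up the 8 highest of 13 expressed among 34. Ccl3, Ccl4 and Ccl11 had 0 counts in each library.

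Mif and a macrophage growth factor led the cytokines. Of 41 interleukins and cytokines 11 were expressed. Besides Mif, Csf1, the growth factor of macrophages, was measured at 529, 546 and 503 TPM (mean 526 ± 21.5). Clcf1, a ligand of the CNTF receptor, stood at 64.3 ± 7.18 TPM, and Il34, the second ligand of CSF1R, at 21.5 ± 3.65 TPM. Il7 (18.3 ± 1.00 TPM), Csf3 (15.7 ± 3.13 TPM), Lif (14.9 ± 0.707 TPM) and Il15 (8.67 ± 0.231 TPM) were lower. Il1a, Il1b, Il2, Il3, Il5 and Il6 had at most 5 counts in any library.

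Among growth factors, 27 of 48 were expressed (56.25%, near the 50.2% of all protein-coding genes). Hdgf, a nuclear and secreted growth factor, was measured at 1347 ± 30.6 TPM and the progranulin gene Grn at 442 ± 17.6 TPM. Vegfa and Vegfb, ligands of endothelial receptors, stood at 149.98 ± 3.47 TPM and 129 ± 1.24 TPM. Gdnf, a neurotrophic factor of the TGF-beta superfamily, was measured at 65.1, 71.8 and 66.6 TPM (mean 67.8 ± 3.51). Pdgfa (50.1 ± 0.939 TPM) and the EGF receptor ligands Ereg (36.6 ± 3.51 TPM) and Hbegf (35.0 ± 3.66 TPM) were next. Vegfc, Pdgfd and Fgf3 to Fgf5 had 0 counts in each library. Of 35 TGF-beta family ligands and antagonists 13 were expressed, among them Tgfb1 (60.8 ± 2.25 TPM), the latent TGF-beta binding proteins Ltbp3 (98.1 ± 1.95 TPM), Ltbp2 (71.1 ± 2.67 TPM), Ltbp1 (48.4 ± 0.0106 TPM) and Ltbp4 (44.2 ± 0.754 TPM) and the activin chain Inhba (34.1 ± 1.86 TPM). The BMP genes Bmp2, Bmp3 and Bmp7 had 0 counts in each library. WNT ligands and antagonists were the scarcest secreted list, with 3 of 33 expressed. Rspo2, which amplifies WNT signals through LGR receptors, was measured at 58.8, 60.2 and 55.9 TPM (mean 58.3 ± 2.18), and the ligands Wnt7b and Wnt9a at 11.3 ± 2.10 TPM and 2.20 ± 0.712 TPM. Wnt2, Wnt3, Wnt3a and Wnt5a had 0 counts in each library.

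Collagen genes were led by 1 chain. Of 44 chains 21 were expressed. Col5a1, a chain that assembles with the product of Col5a2 in the usual form of collagen V, was measured at 498, 501 and 436 TPM (mean 478 ± 36.9). Col5a2 had 5, 4 and 1 counts. The basement membrane chains Col4a1 (121 ± 2.77 TPM) and Col4a2 (98.8 ± 2.71 TPM), which assemble together, were both expressed, with Col4a1 the higher in each library. Col18a1 (155 ± 2.34 TPM), the source of endostatin, and Col8a1 (127 ± 4.04 TPM) were also over 100 TPM. The fibrillar chains of connective tissue were low, with Col1a1 at 8.92 ± 1.26 TPM and Col1a2 at 0.997 ± 0.105 TPM. Serpinh1, the chaperone that folds collagen in the endoplasmic reticulum, was nevertheless measured at 1406, 1523 and 1503 TPM (mean 1477 ± 62.3). Col5a2 was picked out after its value was seen.

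Matrix glycoproteins included several of the most abundant secreted messages. Besides Lgals1, Spp1, Fn1 and Sparc, described above, Lgals3 (691 ± 21.8 TPM), galectin-3, Thbs1 (669 ± 24.7 TPM), thrombospondin-1, Ccn1 and the laminin chain Lamb1 (156 ± 7.91 TPM) were the highest of 30 expressed among 51. Ccn1 and Ccn2 are relatives that both respond to YAP, TAZ and SRF. Ccn1 was measured at 635, 651 and 552 TPM (mean 613 ± 53.4), while Ccn2 had 10, 9 and 4 counts, and 23.2% of the exon length of Ccn2 is shared with another gene. The basement membrane linkers Nid1 and Nid2 and elastin, Eln, had at most 3 counts in any library. Ccn2, Nid1, Nid2 and Eln were also named after their values were seen.

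Of 50 proteases and inhibitors 35 were expressed. Inhibitors of metalloproteases were high, with Timp2 at 614 ± 0.842 TPM and Timp1 at 272 ± 3.28 TPM. Besides these and Serpinh1, the 8 highest held the cathepsins Ctsz (433 ± 17.8 TPM), Ctsl (303 ± 11.4 TPM), Ctsb (187 ± 3.88 TPM) and Ctsd (138 ± 6.94 TPM) and the sheddase Adam9 (149.7 ± 5.81 TPM). For Ctsl 26.8% of the exon length is shared with other genes. Mmp7, Mmp8 and Mmp16 had 0 counts in each library. Of 20 acute-phase and complement genes 7 were expressed. Lcn2, which binds bacterial siderophores, was measured at 214, 233 and 244 TPM (mean 231 ± 15.1), with the complement genes C1s1 (170.4 ± 6.48 TPM), C3 (121 ± 4.71 TPM) and C1ra (86.7 ± 6.35 TPM) next, while C1qa, C1qb and C1qc, the first complement component made by macrophages, had 0 counts in each library.

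Several ligands at high levels were expressed without one of the receptors that they act on. Of 55 ligand and receptor pairs written down after the levels were known, both genes were expressed in 21, the ligand alone in 23, the receptor alone in 10 and neither in 1. These counts depend on the choice of pairs, in which some receptors stand more than once. Cxcl5 and Cxcl1 act on CXCR2, and Cxcr2 had 0 counts in each library. The EGF receptor ligands Ereg, Hbegf, Areg (13.4 ± 1.76 TPM) and Tgfa (10.5 ± 0.165 TPM) were expressed, while Egfr had 1, 2 and 1 counts. Gdnf was likewise expressed with Ret at 0 counts in each library, and Vegfa with Kdr at 0, 1 and 0 counts. Flt1, another receptor of Vegfa, was nevertheless expressed with 15, 11 and 20 counts. The neuropilins Nrp1 (22.5 ± 1.82 TPM) and Nrp2 (123 ± 1.89 TPM), which can also bind VEGFA, were expressed as well. Receptors expressed without their ligand included Axl and Tnfrsf12a, the highest of their lists. Axl stood at 468 TPM, and Gas6, its ligand, had 0, 0 and 1 counts. Tnfrsf12a stood at 473 TPM, and Tnfsf12, which encodes TWEAK, had 1, 0 and 2 counts. Hgf, the ligand of Met, had 7, 1 and 4 counts. The pairs with both genes expressed included Csf1 with Csf1r, Spp1 with Cd44, Efna1 (56.0 ± 5.63 TPM) with Epha2, and Rspo2 with Lgr4 (10.3 ± 1.32 TPM). Ligands in the serum of the medium are not measured by these counts.

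**Figure D5:**
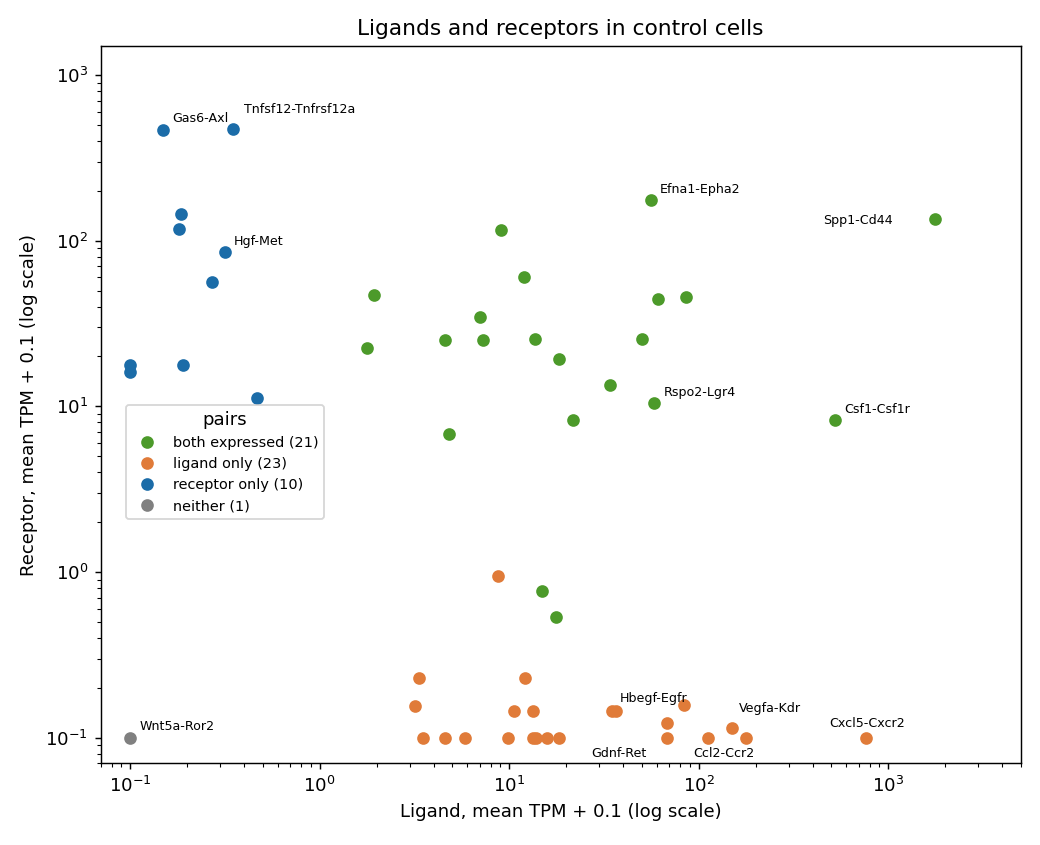
Mean level of the ligand (TPM + 0.1, log scale) against that of the receptor (TPM + 0.1, log scale) for 55 ligand and receptor pairs in the 3 control libraries, coloured by which of them was expressed. The 23 pairs with the ligand alone lie along the bottom, with Cxcl5 the farthest right, and the 10 with the receptor alone at the left, with Axl and Tnfrsf12a at the top.

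Genes of MHC class I were expressed and those of class II largely not. All 15 matched genes of class I and peptide loading were expressed. H2-D1 and H2-K1, classical heavy chains, stood at 349 ± 21.4 TPM and 220.1 ± 6.31 TPM, and the loading factor Tapbp at 243 ± 12.6 TPM. The transporter chains Tap2 (19.03 ± 1.49 TPM) and Tap1 (7.49 ± 1.11 TPM) and the inducible proteasome chains Psmb9 (2.11 ± 0.474 TPM) and Psmb8 (1.29 ± 0.246 TPM) were low beside them. Heavy chain genes are near copies of each other and differ between mouse strains, so their separate levels are uncertain. Of 8 class II genes H2-DMa (13.7 ± 1.16 TPM) was the one expressed, and H2-Aa, H2-Ab1 and H2-Eb1 had 0 counts in each library. Of 17 immune checkpoint ligands 8 were expressed (47.1%, near the 50.2% of all protein-coding genes). They were led by Cd47 (65.5 ± 2.01 TPM), the signal against phagocytosis, and Nectin2 (60.9 ± 4.33 TPM). Cd274, which encodes PD-L1, had 7, 20 and 16 counts, under the threshold in replicate 1 and above it in the other 2.

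The cells expressed the genes of an active cell cycle together with several of its inhibitors. Of 31 cell cycle genes 30 were expressed and 17 reached 100 TPM, against 7.32% of all protein-coding genes. Cdk4, a kinase of G1 phase, was measured at 644, 632 and 645 TPM (mean 640.5 ± 7.17), its cyclin Ccnd1 at 441, 439 and 437 TPM (mean 439 ± 1.73), and Mki67, a marker of cycling cells, at 209, 185 and 176 TPM (mean 189.9 ± 17.5). Pcna (547 ± 7.93 TPM), Mcm5 (386 ± 21.3 TPM) and Ccna2 (369.9 ± 10.97 TPM) of S phase and Plk1 (211 ± 7.59 TPM) and Aurka (206 ± 5.51 TPM) of mitosis were also high. The inhibitor locus Cdkn2a is often lost from cultured lines together with its neighbour Mtap, and here both were expressed. Cdkn2a was measured at 249, 247 and 270.0 TPM (mean 255 ± 12.6) and Mtap at 190.5, 181 and 199 TPM (mean 190.2 ± 8.67), and counts per gene do not separate the p16 and p19 products of Cdkn2a. The inhibitors Cdkn1b (112 ± 5.03 TPM) and Cdkn2c (115 ± 4.04 TPM) stood above 100 TPM, and Cdkn1c had 0 counts in each library. Trp53, which encodes p53, was measured at 33.3, 32.9 and 29.8 TPM (mean 32.0 ± 1.92), and its target Cdkn1a at 19.6 ± 1.94 TPM.

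Of 35 tumour suppressors and oncogenes 32 were expressed. Besides Ccnd1, Cdkn2a, Mtap and Myc the 8 highest held Akt1 (280.3 ± 10.3 TPM), Nf2 (97.8 ± 1.5 TPM), Nras (88.9 ± 2.67 TPM) and Stk11 (78.3 ± 2.45 TPM). The 3 members that were not expressed were Cdh1, Trp63 and Trp73, the last with 0 counts in each library. Brca1 (28.1 ± 1.65 TPM) and Rb1 (24.6 ± 1.59 TPM) lay near the median expressed gene. These counts do not show mutations.

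Dormancy-associated genes were a mixed list, with 13 of 25 expressed, near the share of all protein-coding genes. Thbs1, thrombospondin-1, was measured at 687, 681 and 641 TPM (mean 669 ± 24.7), followed by Axl, Cdkn1b and the transcription factor Bhlhe40 (64.1 ± 4.91 TPM). Nr2f1, an orphan receptor tied to dormancy, was lower, at 6.53 ± 0.548 TPM, and the retinoic acid receptor Rarb at 1.52 ± 0.0371 TPM. Bmp7 and Cdkn1c had 0 counts in each library, Bmp4 had 0, 2 and 1 counts and Mertk 4 counts in each.

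Genes of Mediator, through which activators at enhancers reach RNA polymerase II, were expressed throughout. Of 33 subunits 32 were expressed, none reached 100 TPM, and their median was 31.3 TPM. Med19 was the highest, measured at 97.7, 99.6 and 98.4 TPM (mean 98.5 ± 0.947). Med1, the subunit bound by nuclear receptors, was measured at 31.9, 32.5 and 29.4 TPM (mean 31.3 ± 1.67), and Med4, a subunit of the middle module, at 27.7, 27.1 and 27.6 TPM (mean 27.5 ± 0.287). Both lay in the middle of the list, with Med1 above Med4 in each library. With the longest transcript as length the order turned, with Med1 at 26.6 TPM and Med4 at 34.1 TPM. The subunits of the kinase module Med13 (43.2 ± 2.39 TPM), Med12 (39.5 ± 2.36 TPM), Cdk8 (27.6 ± 0.175 TPM) and Cdk19 (21.6 ± 0.463 TPM) were expressed, and Med12l, the relative of Med12, had 8, 5 and 5 counts.

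Families of specialised tissues made up part of the silent genes. Of 1134 olfactory receptors 4 were expressed and 1060 had 0 counts in each library. Of 328 vomeronasal receptors 1 was expressed, and none of 57 keratin-associated proteins, 42 beta-defensins and 22 major urinary proteins. No segment of the 476 immunoglobulin and T cell receptor segments was expressed. Of 100 cytochromes P450 13 were expressed, led by Cyp51 (146 ± 4.73 TPM), an enzyme of cholesterol synthesis. The prolactin family of the placenta held an exception. Prl2c2, a proliferin, was measured at 162, 147 and 155 TPM (mean 154 ± 7.28) and the near-identical Prl2c3 at 23.3 ± 2.56 TPM, and the other 24 members were not expressed. Reads of these 2 genes may be split between copies. Of 394 genes named Zfp, by contrast, 306 were expressed, at a median of 10.1 TPM.

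Noncoding RNAs and stem cell markers were gathered into lists after the levels were known. Of 17 named long noncoding RNAs 12 were expressed, led by Malat1 (75.2 ± 8.17 TPM), Gas5 (69.2 ± 3.98 TPM) and Neat1 (53.1 ± 4.24 TPM). Hotairm1, which lies in the HOXA cluster, stood at 29.9 ± 3.77 TPM, while Hotair, in the HOXC cluster, had 0 counts in each library. Of 19 stem and progenitor markers 12 were expressed, among them Hmga1 (426 ± 9.56 TPM), Cd24a (176 ± 7.06 TPM) and Procr (43.6 ± 3.08 TPM), while Hmga2 had 5, 1 and 5 counts and Prom1 had 0.

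The 3 libraries differed from each other by more than counting error in a small share of genes. A chi-square test of each gene's 3 counts against the scaled library sizes, with Benjamini-Hochberg adjustment, was run on 13313 genes with at least 30 counts in all. At an adjusted p under 0.05 it called 380 genes (2.85%), of which 25 differed at least 1.5-fold and 8 at least 2-fold. It compares libraries with counting error and no conditions with each other. The highest value fell to replicate 1 in 135 of these genes, to replicate 2 in 123 and to replicate 3 in 122. Without replicate 3 the test called 91 genes, and without replicate 1 it called 220. By pairs of libraries the chi-square per degree of freedom was 1.57 for replicates 1 and 2, 1.90 for 1 and 3 and 1.87 for 2 and 3.

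Some lists held more varying genes than others. Ribosomal protein genes held 34 called of 83 tested, mitochondrially encoded genes 9 of 21, matrix glycoproteins 8 of 30 and MHC class I genes 3 of 15, beside the 2.85% of all genes. Abundant genes have small counting errors and pass this test at smaller differences. Spp1 was called at a ratio of 1.23 between its highest and lowest library. The 8 genes at 2-fold or more were Usp18, Gm13889, Igtp, Ube2l6, Bach2, Tmem119, Gm12043 and Fam53b, each under 10 CPM on average. Several of the varying genes are known to be induced by interferon, and 4 of these, picked out after their values were seen, were highest in replicate 3. Usp18, a protease that removes ISG15, had 20, 12 and 44 counts (ratio 3.51, chi-square test, adjusted p = 0.00384). Igtp, a GTPase, had 29, 23 and 59 counts (ratio 2.46), Ube2l6, which attaches ISG15, had 37, 52 and 89 counts (ratio 2.29), and Ifit1, which binds viral RNA, had 50, 54 and 103 counts (ratio 1.96). The largest ratios among called genes with at least 10 CPM belonged to Ndufaf2, G930009F23Rik, Gm10039, Klhl11 and Praf2. Ndufaf2, an assembly factor of respiratory complex I, stood at 14.2, 7.95 and 11.4 CPM. H2-T23, a class I gene, stood at 13.9, 12.8 and 20.8 CPM (ratio 1.62, chi-square test, adjusted p = 0.00483). Lgals3bp, the galectin-3 binding protein, stood at 20.1, 19.2 and 30.8 CPM (ratio 1.61, adjusted p = 5.32e-05). Both were highest in replicate 3. Gm27241, Zfp617, Ttc26, Pdlim2 and Chek2 completed the 12, with ratios from 1.54 to 1.61.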

How the data were processed

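RNA of 3 control samples, titled NTC in the labels, was analysed. The authors deposited raw counts per gene, 1 file per sample, made with STAR and HTSeq on GRCm38 (mm10), per the submitters' processing notes. No source used here gives the tool versions, the annotation release or the use of strand. The files list 55335 genes and 0 rows that name no gene. Of these, 55154 matched GENCODE M21 (GRCm38) by identifier without version, and that annotation gave names, types and the summed exon length per gene.

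CPM was computed from the counts with TMM scaling (edgeR 4.0.16 in R 4.3.3; scaling factors 0.998 to 1.00), and TPM from the counts and exon lengths. A gene was expressed at 1 CPM or more in each library and not detected at 3 counts or fewer in each. Exact 95% binomial intervals and limits cover counting error only, and reads without molecular identifiers are not independent molecules. The chi-square test of 3 counts per gene was run on counts simulated with counting error alone and changes in replicate 3 only. It called 52.0% of genes changed 1.2-fold and 96.0% of those changed 1.5-fold, and 5.95% of its calls were false. The real libraries varied by more than counting error, so these rates do not carry over to them. Python 3.11.15, pandas 2.3.3, SciPy 1.17.1 and matplotlib 3.10.9 were used. The common biological coefficient of variation, as edgeR names it, was 3.30% over the 12794 genes that passed its filter. This spread may be technical. The TMM scaling was compared with RLE.

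No groups were compared. The members, gene lists and rules were chosen with earlier results of these data known. By rule the text names the 25 protein-coding genes of highest TPM outside ribosomal protein and mitochondrial genes, up to 8 expressed members of each list by TPM and up to 8 not expressed in list order, the 12 varying genes of largest ratio at a mean of at least 10 CPM, the cell type markers, and Med1, Med4, Epcam, Cdh1, Vim, Esr1, Pgr, Erbb2, Cdkn2a, Mtap, Trp53 and Xist. Other genes named, the ligand and receptor pairs, the noncoding and stem cell lists and the promoters shown were chosen after their values were seen. Alternatives were another scaling, filter, threshold, length and leaving out each library. Some genes are not reported here.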

Additional observations from a re-analysis of the deposited data

How the results depend on the processing

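Shares of a whole library depended on the scale. The 25 highest genes took 9.42% of counts, 14.7% of TPM, and 7.25% with mitochondrial genes left out. Ribosomal protein genes took 3.75% of counts, 6.89% of TPM and 3.90% without mitochondrial genes, and mitochondrial genes 3.84% of counts and 10.4% of TPM. The count of varying genes ranged from 91 to 272 when 1 library was left out, against 380. Of promoters of expressed genes under 10, 54.3% reached the CpG ratio of 0.6 when classed by CPM, against 61.3% by TPM. The causes were not tested. Expressed genes ranged from 12054 to 14272 against 13048, and expressed list members from 565 to 634 against 603. Of the single lists, chemokine receptors went from 2 to 4 and MHC class II from 1 to 2 at 0.5 CPM. Milk proteins went from 1 to 0 and neural markers from 2 to 1 at 2 CPM, and likewise at 1 TPM. With the longest transcript as length, TPM changed by 0.780 to 2.61 times (the highest for Med15), and by over 1.5 times for 48 of 603 list members, and Med4 (34.1 TPM) then stood above Med1 (26.6 TPM). No paired analysis was possible because the libraries are of 1 group. Genes under 3 counts cannot be told from 0 at this depth.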
